A study of Mus musculus with 4 samples.

Results

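Lung transcripts measured 90 h after inhalation of hexamethylene diisocyanate (HDI) were compared with those of unexposed lungs. HDI is a reactive chemical of polyurethane paints and coatings that irritates and sensitises the airways. The 90 h group was 1 pool of whole lungs from mice of the inbred strain C57BL/6J, which had breathed HDI aerosol at 10 mg per cubic metre 90 h earlier. The unexposed group, titled with 0 h, was 1 pool of whole lungs of the same strain. Each pool was read on 1 Affymetrix MG_U74Av2 array, and the 2 arrays were chosen by their titles from the 4 of the study, whose other pools were taken 6 and 18 h after the aerosol. How many mice made up a pool, how long they were exposed and at what hour the lungs were collected is not given in the sources used here. All 12422 probe sets other than the array's controls, of 12488 in all, entered the comparison. Those with 1 gene symbol represented 8251 genes, of which 6062 were above a detection floor of 77.7 intensity units in at least 1 of the 2 pools and are called compared genes below. A single array stood for each pool, so replicate spread could not be measured and no test was made. Every fold describes these 2 arrays, and the number of arrays limits the precision.

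After a chemical injures the lining of the airways and alveoli, surviving epithelial cells spread and divide to cover the surface. Macrophages clear debris through their lysosomes, and fibroblasts and smooth muscle cells lay down matrix such as elastin, collagen and tenascin. Many lung genes also follow the time of day through the circadian clock, a loop in which the proteins ARNTL and CLOCK switch on the genes of their own repressors.

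The arrays were alike in signs of RNA quality, while the unexposed array was somewhat dimmer before scaling. Deposited medians were 97.7 units in the unexposed pool and 106, 106 and 108 units in the 6, 18 and 90 h pools. Values listed at 0 numbered 184 in the unexposed pool and 102, 105 and 126 in the others. After scaling 5733 genes lay above the floor in the 90 h pool, against 5712 in the unexposed pool. The 3' to 5' signal ratio, a sign of RNA integrity, was 1.22 in the 90 h pool and 1.21 in the unexposed pool for Gapdh, and 1.55 and 1.5 for beta-actin. Probe sets for bacterial spike-in transcripts, left out of the scaling, were higher in the 90 h pool, with a median log2 difference of 0.36 over 9 probe sets, while the median over all compared genes was 0.03. The part of this in the results was not tested. Defining lung markers were among the brightest genes of both pools. Sftpc, a surfactant protein of type II cells, had 9248 units at 90 h and 9874 in unexposed lungs. Scgb1a1, the secretoglobin of club cells, had 8006 units at 90 h and 10634 in unexposed lungs, and Ager, a receptor of type I cells, had 4317 units at 90 h and 4447 in unexposed lungs. These markers were named to check the tissue.

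Most genes at 90 h were close to their unexposed level. Of the 6062 compared genes 91.7% lay within 1.5-fold, and the 10th and 90th percentiles of the log2 difference were -0.41 and 0.40. At a threshold of 2-fold 44 genes were higher at 90 h, 0.726% of compared genes, and 56 were lower, 0.924%. The same threshold gave 131 higher and 91 lower genes at 6 h, 2.17% and 1.51% of those compared there, and 96 higher and 57 lower genes at 18 h, 1.59% and 0.944%, against the same unexposed array. Among the counts at 90 h, 18 of the 44 and 19 of the 56 were bounds, because the gene was at the floor in the other pool. Probe sets of the same gene gave the only repeated measure within an array. Their disagreement had a robust SD of 0.25 log2 units over 304 pairs, a figure that holds no variation among animals, pools or hybridisations.

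**Figure D1:**
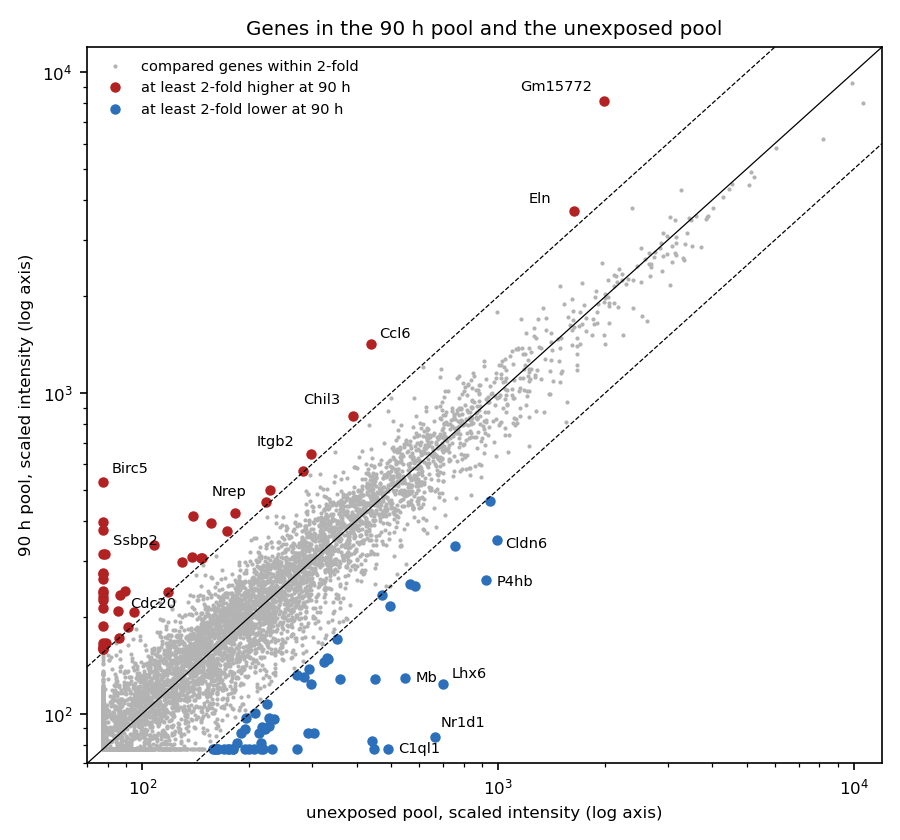
Scaled intensity of each compared gene in the 90 h pool (vertical, log axis) against the unexposed pool (horizontal, log axis), with values under the floor of 77.7 units drawn at the floor. The 44 red genes lie at least 2-fold above the solid line of equal level and the 56 blue genes at least 2-fold below it, with dashed lines at 2-fold. Most of the coloured genes are dim, and Gm15772 and Eln are the brightest of the higher genes.

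Most compared genes used in mitosis lay above the unexposed level at 90 h. Of 43 genes of mitosis and chromosome segregation, 27 were compared and the other 16 were at the floor in both pools. Their median log2 difference was 0.34, with 21 members above 0 and 6 below, against 53.8% of all compared genes above 0. Of these 27 genes 3 were at least 2-fold higher and none was 2-fold lower, set beside 0.726% and 0.924% of all compared genes. At the threshold of 1.5-fold 9 were higher, set beside 3.4% of all compared genes. In whole tissue, more cells of a type and more RNA per cell cannot be told apart. Of the 27, 7 were under the floor in unexposed lungs and were compared only through their level at 90 h, so they could only be higher. The 19 members above the floor in both pools had a median of 0.20.

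Birc5 encodes survivin, a subunit of the chromosomal passenger complex that corrects chromosome attachments. Its intensity was 34.0, 33.4 and 29.9 units in the unexposed, 6 and 18 h pools, all under the floor, and 529 units at 90 h, at least 6.81-fold higher than in unexposed lungs. Of the other members of that complex, the kinase gene Aurkb had 164 units at 90 h and 91.4 in unexposed lungs, a log2 difference of 0.84. Incenp, its scaffold, had 106 units in both. Cdc20, which activates the ubiquitin ligase that starts anaphase, had 86.6, 101 and 119 units in the unexposed, 6 and 18 h pools and 234 units at 90 h, 2.70-fold above unexposed. Ccnb2, a B-type cyclin, had 85.3, 70.9 and 63.4 units in the unexposed, 6 and 18 h pools and 210 units at 90 h, a 2.46-fold difference. For Birc5, Cdc20 and Ccnb2 the 90 h pool stood far above the other pools, none of which passed 2-fold from unexposed.

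Dimmer members of the list ran the same way. Mki67, the proliferation marker Ki-67, had 155 units at 90 h and 50.6 in unexposed lungs, and Cdk1, the kinase that B-type cyclins activate, had 132 units at 90 h and 39.5 in unexposed lungs. Both were under the floor in all 3 other pools, so their log2 differences of 0.99 and 0.77 are lower bounds. The further probe set of Mki67 gave a bound of 0.49. Kif23, a kinesin of cell cleavage, had 171 units at 90 h and 94.3 in unexposed lungs. Plk1, a mitotic kinase, had 203 units at 90 h and 132 in unexposed lungs by a probe set whose name carries a suffix for possible cross-hybridisation, whereas another of its probe sets had a log2 difference of -0.32. The lowest member was Cdc25c, a phosphatase that activates Cdk1, with 127 units at 90 h and 166 in unexposed lungs.

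Cell division genes are known to share promoter elements, so promoters of 3 members are shown. The CCAAT box and the element TTTGAA are known from genes switched on late in the cell cycle. Sequences run from 250 bases before to 50 bases after the gene start and come from RefSeq on GRCm38.p6. Cdc20 lies on the minus strand at chr4:118437294-118437593, Ccnb2 on the minus strand at chr9:70421505-70421804 and Cdk1 on the minus strand at chr10:69352863-69353162. Capitals mark both elements on either strand, so that a CCAAT box of the opposite strand reads ATTGG.
Cdc20: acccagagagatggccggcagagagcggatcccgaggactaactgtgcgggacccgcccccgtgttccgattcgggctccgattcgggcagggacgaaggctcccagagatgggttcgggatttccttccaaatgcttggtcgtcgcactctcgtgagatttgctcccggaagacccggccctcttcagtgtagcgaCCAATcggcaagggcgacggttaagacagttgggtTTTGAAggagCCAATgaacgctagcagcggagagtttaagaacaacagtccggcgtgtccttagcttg
Ccnb2: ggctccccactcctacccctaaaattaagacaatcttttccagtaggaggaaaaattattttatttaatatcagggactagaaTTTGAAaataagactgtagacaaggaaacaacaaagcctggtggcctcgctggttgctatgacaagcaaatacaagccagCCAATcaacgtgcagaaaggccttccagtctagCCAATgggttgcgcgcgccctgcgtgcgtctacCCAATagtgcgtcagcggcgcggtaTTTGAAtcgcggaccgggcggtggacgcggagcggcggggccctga
Cdk1: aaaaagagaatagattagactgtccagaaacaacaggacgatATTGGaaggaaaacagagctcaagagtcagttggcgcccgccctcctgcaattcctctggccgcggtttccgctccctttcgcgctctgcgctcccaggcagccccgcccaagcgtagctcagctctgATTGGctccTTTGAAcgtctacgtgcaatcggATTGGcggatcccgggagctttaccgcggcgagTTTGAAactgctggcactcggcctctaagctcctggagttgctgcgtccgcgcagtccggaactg

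Of the 27 compared genes of mitosis, 21 matched an entry of the promoter table, with 23 promoters. On either strand 19 of these promoters, 82.6%, held CCAAT and 16, 69.6%, held TTTGAA. Among all 32851 promoters of the table the shares were 37.4% and 17.9%. The window of Birc5 matched neither set of letters. These counts describe the lists and say nothing of which factor was bound in these lungs.

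Genes of DNA replication had a smaller median than the full list of mitosis genes. Of 25 compared S phase genes 15 lay above 0 and 10 below, with a median log2 difference of 0.19. None passed 1.5-fold higher and 2 were at least 1.5-fold lower, set beside 3.4% and 4.88% of all compared genes. Mcm3, a subunit of the replicative helicase, gave only a bound, so its place under 1.5-fold is not certain. The bound was at least 0.55 log2 units by a probe set with a suffix and 0.34 by its other probe set. Pcna, the sliding clamp of DNA polymerase, had 296 units at 90 h and 246 in unexposed lungs, and Tk1, thymidine kinase, 172 and 139 units. Larger differences were downward, with Pold2 at -0.61, Rfc3 at -0.52 and Pola2 at -0.50 log2 units. Those of Pold2 and Pola2 came from probe sets with a suffix. The lowest S phase gene was Ung, a uracil glycosylase of DNA repair, with 145 units at 90 h and 325 in unexposed lungs. Its probe set had a cross-hybridisation suffix, while the dimmer probe set of Ung showed -0.15 on the log2 scale. Mitosis genes above the floor in both pools had a median close to that of the S phase genes. The difference between the 2 lists was not tested. The 17 compared G1 cyclins and cyclin-dependent kinase inhibitors had a median of 0.27. Among them Cdkn1a, which encodes the inhibitor p21, had 161, 1016 and 387 units in the unexposed, 6 and 18 h pools and 310 units at 90 h, so the 90 h pool lay 0.94 log2 units above unexposed by this probe set. Its other probe set had 194 units at 90 h and 186 in unexposed lungs, a log2 difference of 0.06.

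**Figure D2:**
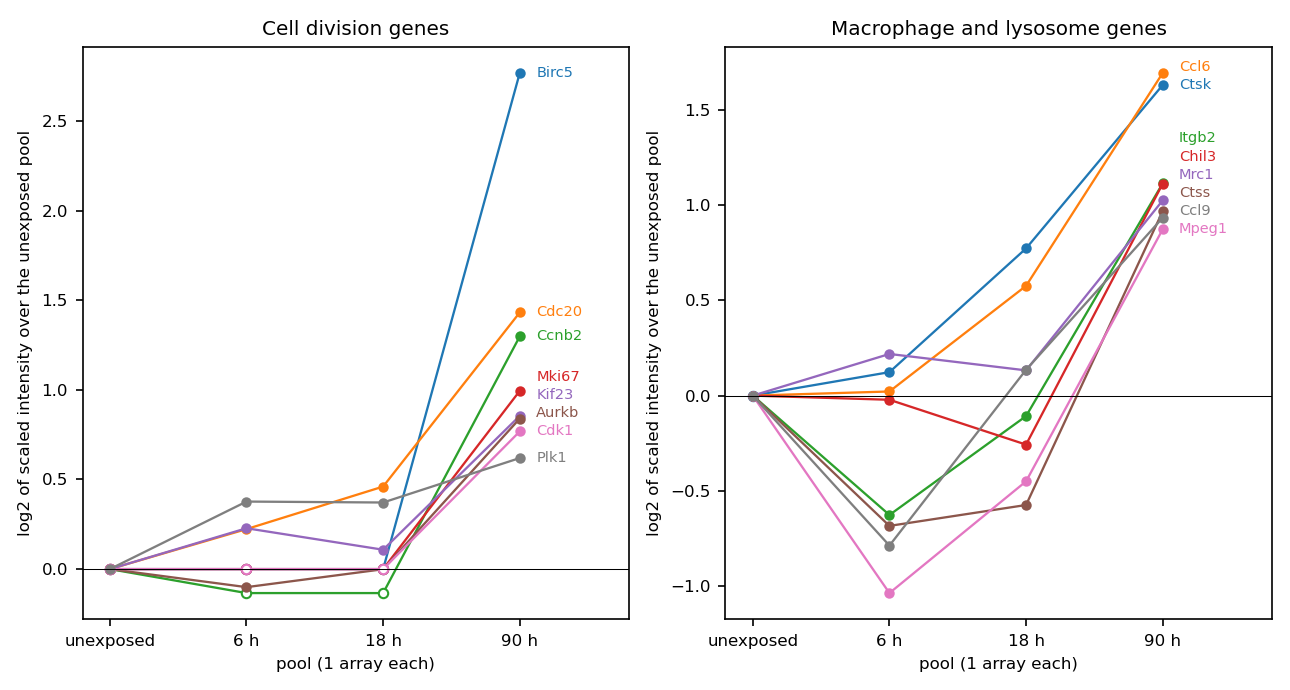
Log2 of scaled intensity over the unexposed pool in the unexposed, 6, 18 and 90 h pools, 1 array each, for 8 cell division genes (left) and 8 macrophage and lysosome genes (right); open points are at the floor. All 16 genes are highest at 90 h, where they lie between 0.62 (Plk1) and 2.77 (Birc5, a bound) above unexposed, while Itgb2, Ctss, Ccl9 and Mpeg1 lie below unexposed at 6 h.

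Macrophage genes were higher at 90 h, with the largest median of the 54 gene lists described. Of 36 markers of macrophages and monocytes, 29 were compared, with 23 above 0, 6 below and a median log2 difference of 0.49. Of the 29, 3 were at least 2-fold higher and none 2-fold lower, while 10 were at least 1.5-fold higher and 2 at least 1.5-fold lower. Members under the floor in unexposed lungs were compared only through their level at 90 h, so they could only be higher. Among them were Ctsk, which was counted as 2-fold higher, Mmp12 and Adgre1. Of all compared genes, 0.726% were at least 2-fold higher, 0.924% at least 2-fold lower, 3.4% at least 1.5-fold higher and 4.88% at least 1.5-fold lower. The summed intensity of the 29 was 16077 units at 90 h and 13094 in unexposed lungs, and none was listed at 0 in either. The same genes had medians of -0.07 at 6 h and -0.21 at 18 h. Without the 19 members that other lists also hold, the median of the remaining 10 was 0.18, within the disagreement of probe sets of 0.25.

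The members differed in size. Ctsk, a protease of macrophages and osteoclasts, had 75.4, 84.6 and 133 units in the unexposed, 6 and 18 h pools and 241 units at 90 h, a log2 difference of at least 1.63. Chil3, a chitinase-like secreted protein of alveolar macrophages also called Ym1, had 391, 385 and 327 units in the unexposed, 6 and 18 h pools and then 846 units at 90 h, 2.16-fold above unexposed. Mrc1, the mannose receptor, had 118, 137 and 129 units in the unexposed, 6 and 18 h pools and 240 units at 90 h. In all 3 genes the 90 h pool was the highest of the 4. Among receptors and surface proteins, Mpeg1, a pore-forming protein of phagocytes, had 796 units at 90 h and 434 in unexposed lungs, and Ccr2, the monocyte chemokine receptor, 250 and 147 units. C1qa, C1qb and C1qc, the 3 chains of complement C1q made by macrophages, had log2 differences of 0.60, 0.69 and 0.56. The general markers Csf1r, the receptor of macrophage growth factor, and Cd68 had 0.53 and 0.56.

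Other macrophage genes were near the unexposed level or under it. Lyz2, lysozyme, had 3078 units at 90 h and 2986 in unexposed lungs, and Apoe 1899 and 1913 units. Cd36, a scavenger receptor, had 101 units at 90 h and 202 in unexposed lungs by a probe set with a cross-hybridisation suffix, whereas its other probe set, without a suffix, had 106 units at 90 h and 77.1, under the floor, in unexposed lungs. Siglec1, a lectin of tissue macrophages, lay under the floor at 65.4 units at 90 h, against 138 units in unexposed lungs. Genes of white blood cells in general lay near the unexposed level at 90 h. Their 28 compared members had a median of 0.10 at 90 h, while the same genes had -0.61 at 6 h and -0.28 at 18 h. Ptprc, the CD45 antigen of all white cells, had 331, 129 and 162 units in the unexposed, 6 and 18 h pools and 345 units at 90 h. Itgb2, the shared chain of the leukocyte integrins, had 297, 192 and 276 units in the unexposed, 6 and 18 h pools and then 644 units at 90 h, 2.17-fold above unexposed.

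Lysosomal genes were higher almost throughout. Of 32 compared cathepsins and lysosomal genes 31 lay above 0, with a median log2 difference of 0.42, and 7 were at least 1.5-fold higher. Of all compared genes, 53.8% lay above 0 and 3.4% were at least 1.5-fold higher. Besides Ctsk, the largest differences were those of Ctss, cathepsin S of antigen-presenting cells, and of Npc1, a cholesterol transporter of the lysosome. Ctss had 617, 384 and 414 units in the unexposed, 6 and 18 h pools and 1207 units at 90 h, and Npc1 had 347, 274 and 397 units in the unexposed, 6 and 18 h pools and 653 units at 90 h. The bright genes Ctsd and Ctsb, 2 major lysosomal proteases, had log2 differences of 0.53 and 0.36. The exception was Cst3, the protease inhibitor cystatin C, at 2866 units at 90 h and 3083 in unexposed lungs. The list shares 6 members with others, and the part of macrophage number in these differences was not tested.

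Chemokines were mixed. Ccl6, a chemokine of macrophages and granulocytes, had 438, 445 and 654 units in the unexposed, 6 and 18 h pools and 1420 units at 90 h, 3.24-fold above unexposed. Ccl9, of the same CC family, had 141, 81.7 and 155 units in the unexposed, 6 and 18 h pools and 270 units at 90 h. Both were highest at 90 h. Ccl5, a chemokine of T cells, was lower, at 153 units at 90 h and 269 in unexposed lungs, as was Il13, a cytokine of type 2 immunity, at 183 units at 90 h and 345 in unexposed lungs. Over 25 compared chemokines and cytokines the median was -0.11, with Ccl6 and Lta at least 2-fold higher. Of all compared genes 0.726% were at least 2-fold higher. Lta, lymphotoxin, had 275 units at 90 h and was listed at 0 in unexposed lungs, by a probe set with a suffix, while the further probe set of Lta lay at the floor in each pool. Of 17 genes used as signs of alternative macrophage activation 3 were at least 2-fold higher, namely Ccl6, Chil3 and Mrc1, and the median was 0.16. Ccl22 and Alox15, also of that list, had log2 differences of -0.57 and -0.51. Chia1, a chitinase of lung epithelium and macrophages named among the 20 highest genes, had 306 units at 90 h and 146 in unexposed lungs.

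Markers of neutrophils had a median of 0.05 over 21 compared genes, and 12 lay above 0, set beside 53.8% of all compared genes. S100a8 and S100a9, which form the calcium-binding protein calprotectin, had 412 and 175 units at 90 h, against 225 and 98.8 units in unexposed lungs. Ltf, the granule protein lactoferrin, had 213 units at 90 h and 275 in unexposed lungs, and Mpo, myeloperoxidase, 226 and 298 units. Chil3 belongs to this list too, as the only member at least 2-fold higher.

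Elastin and tenascin C were higher at 90 h, while the matricellular, elastic fibre and crosslinking genes together had a median of 0.06 over 29 compared members. Eln, the precursor of elastin, was among the brightest genes past 2-fold, with 1639, 1867 and 1797 units in the unexposed, 6 and 18 h pools and 3694 units at 90 h, 2.25-fold above unexposed. Its second probe set had 251, 337 and 273 units in the unexposed, 6 and 18 h pools and 612 units at 90 h, a log2 difference of 1.28. Only 2 of the 44 higher genes had a further probe set measured in both pools, and of these only that of Eln also passed 2-fold. Of genes tied to elastic fibres, Mfap4 had 965 units at 90 h and 500 in unexposed lungs by a probe set with a suffix, and Loxl1, a crosslinking enzyme of elastin, 164 and 102 units. Ltbp2 had a log2 difference of 0.58 and Ltbp4, another binding protein of latent TGF-beta, -0.50. Tnc, tenascin C of healing tissue, had its highest value at 18 h. Its levels were 89.3, 119 and 452 units in the unexposed, 6 and 18 h pools and 241 units at 90 h, 2.70-fold above unexposed, and its other probe set gave a bound of 0.46. Reck, a membrane inhibitor of matrix proteases, had 129, 243 and 246 units in the unexposed, 6 and 18 h pools and 296 units at 90 h.

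Collagen and laminin genes differed less but mostly in the same direction. Of 31 compared genes of collagens and basement membrane 27 lay above 0, set beside 53.8% of all compared genes. Their median was 0.25, equal to the disagreement of probe sets. Of the 31, 4 were at least 1.5-fold higher, against 3.4% of all compared genes. Col1a1 and Col1a2, the chains of type I collagen, had log2 differences of 0.46 and 0.40, with 1843 and 1210 units at 90 h, against 1340 and 915 units in unexposed lungs. A dimmer probe set of Col1a2 with a suffix went the other way, at 134 units at 90 h and 180 in unexposed lungs. Lamb3 and Lama3, chains of a laminin that anchors epithelium, had log2 differences of 0.78 and 0.75, that of Lama3 by a probe set with a suffix. The basement membrane collagens Col4a1 and Col4a2 had 0.01 and 0.13. P4hb, a subunit of collagen prolyl hydroxylase, was the only member at least 2-fold lower, by a probe set with a suffix, and its other probe set gave -0.02. Sparc and Postn, 2 matrix proteins of fibroblasts, had 0.00 and -0.10.

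**Figure D3:**
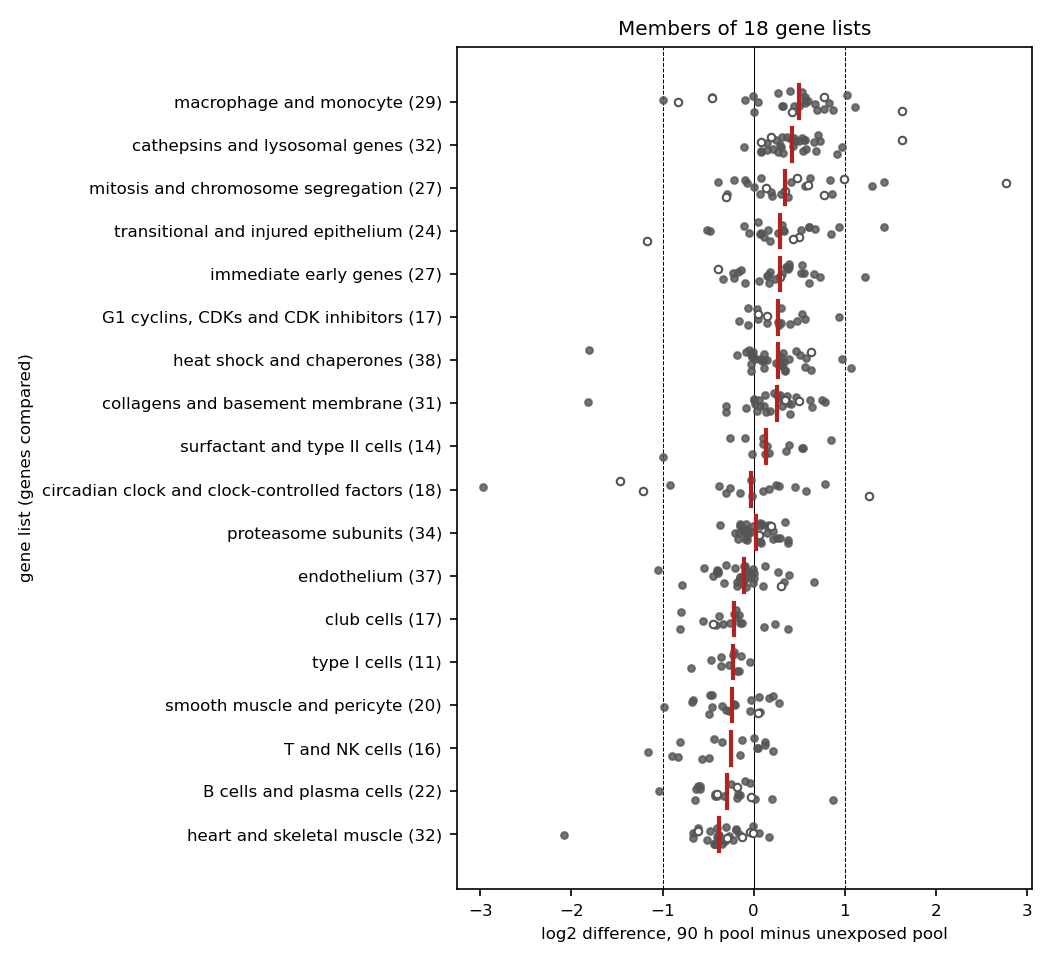
Log2 difference of the 90 h pool minus the unexposed pool for each compared member of 18 gene lists, with the number of genes in brackets; points are genes, open points are bounds, red bars are medians, and dashed lines mark 2-fold. Medians run from 0.49 for macrophage genes to -0.38 for heart and skeletal muscle genes, and the clock list has members at both ends and a median of -0.03.

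Medians of the lists of epithelial cell types differed in sign but all lay within the disagreement of probe sets of 0.25. Ciliated cell genes had a median of -0.02 over 7 compared members. Genes of goblet, mucous and basal cells had 0.13 over 13. Other lists also hold 6 of the 11 type I, 13 of the 17 club and 7 of the 14 type II cell genes. All 11 compared type I cell genes lay under their unexposed level, with a median log2 difference of -0.22, set beside 46.2% of all compared genes below 0. Igfbp2, an insulin-like growth factor binding protein, was the lowest, at 472 units at 90 h and 759 in unexposed lungs. Hopx, a homeodomain protein, had 2600 units at 90 h and 3337 in unexposed lungs, and Ager was nearly equal in the 2 pools. Of 17 club cell genes 14 were below 0 and the median was -0.21. Scgb1a1 had a log2 difference of -0.41, and Cyp2f2, a P450 enzyme of club cells, had 2851 units at 90 h and 3715 in unexposed lungs. Type II cell genes lay near the unexposed level. Of their 14 compared members 10 lay above 0, with a median of 0.13. Muc1, a membrane mucin, had 993, 806 and 1377 units in the unexposed, 6 and 18 h pools and 1795 units at 90 h, while Sftpb, surfactant protein B, had 3554 units at 90 h and 3603 in unexposed lungs.

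Genes of injured and transitional epithelium were nearer the unexposed level at 90 h than at 18 h. Their 24 compared members had medians of 0.47 at 6 h and 0.94 at 18 h, and of 0.29 at 90 h. Lcn2, an iron-scavenging defence protein, had 438, 824 and 2524 units in the unexposed, 6 and 18 h pools and 667 units at 90 h. Krt8 and Krt18, the keratin pair of simple epithelium, had log2 differences of 0.12 and 0.32 at 90 h. Clu, a secreted chaperone, was higher at 90 h than in the other pools, at 881 units against 490 in unexposed lungs. Sprr1a, a cross-linked protein of squamous cells, was under the floor at 90 h, at 56.4 units, against 175 units in unexposed lungs.

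A few clock genes lay far from their unexposed level, most of them lower. Of 18 compared genes 3 were at least 2-fold lower and 1 at least 2-fold higher, set beside 0.924% and 0.726% of all compared genes. The clock list's median of -0.03 hides this spread. Nr1d1, which encodes the repressor REV-ERB alpha, had the largest decrease measured in both pools of any gene. Its levels were 663, 364 and 134 units in the unexposed, 6 and 18 h pools and 84.5 units at 90 h, 7.85-fold below unexposed. Its relative Nr1d2 had 180, 239 and 91.1 units in the unexposed, 6 and 18 h pools and was under the floor at 21.7 units at 90 h, a log2 difference of at most -1.21. Dbp, a transcription factor whose gene ARNTL and CLOCK drive directly, had 215, 83.7 and 21.7 units in the unexposed, 6 and 18 h pools and 14.8 units at 90 h, at least 2.77-fold below unexposed. Tef, of the same family as Dbp, had 273 units at 90 h and 519 in unexposed lungs.

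Arntl and several of its partners were higher. Arntl, which REV-ERB proteins repress, had 76.9 units in the unexposed pool, under the floor, 98.5 and 120 units at 6 and 18 h and 187 units at 90 h, a log2 difference of at least 1.27. Npas2, a relative of Clock, had 126 units at 90 h and 84.2 in unexposed lungs, and Cry1, a repressor of the loop, 196 and 114 units by a probe set with a suffix. Clock itself had a log2 difference of 0.28. Per1 had 179, 373 and 221 units in the unexposed, 6 and 18 h pools and 175 units at 90 h. The hour of day of each collection is not given in the sources used here, and hour and exposure cannot be told apart.

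The promoter of Arntl is shown because it is known for elements at which REV-ERB proteins bind. It lies on the plus strand at chr7:113207261-113207560, from RefSeq on GRCm38.p6, and is the later of 2 listed starts. Capitals mark matches to TAGGTNA on either strand, a pattern added after the table was seen.
Arntl: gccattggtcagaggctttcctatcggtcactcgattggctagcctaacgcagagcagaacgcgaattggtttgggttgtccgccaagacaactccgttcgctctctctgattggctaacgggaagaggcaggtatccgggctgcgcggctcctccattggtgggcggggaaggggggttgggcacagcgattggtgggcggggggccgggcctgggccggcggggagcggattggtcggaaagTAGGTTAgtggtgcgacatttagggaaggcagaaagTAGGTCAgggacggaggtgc

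This window held 2 matches, while 8.29% of all 32851 promoters of the table held at least 1. Of the 18 compared clock genes 16 matched the table, with 24 promoters. Of these, 4 promoters, 16.7%, held CACGTG, the E-box at which ARNTL and CLOCK bind, against 7.15% of all promoters. The 4 belonged to 3 genes, Per1, Cry1 and Tef, the last with 2 listed starts. The windows of Nr1d1, Nr1d2, Dbp and Arntl held no CACGTG. A match of letters is not a site in use.

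**Figure D4:**
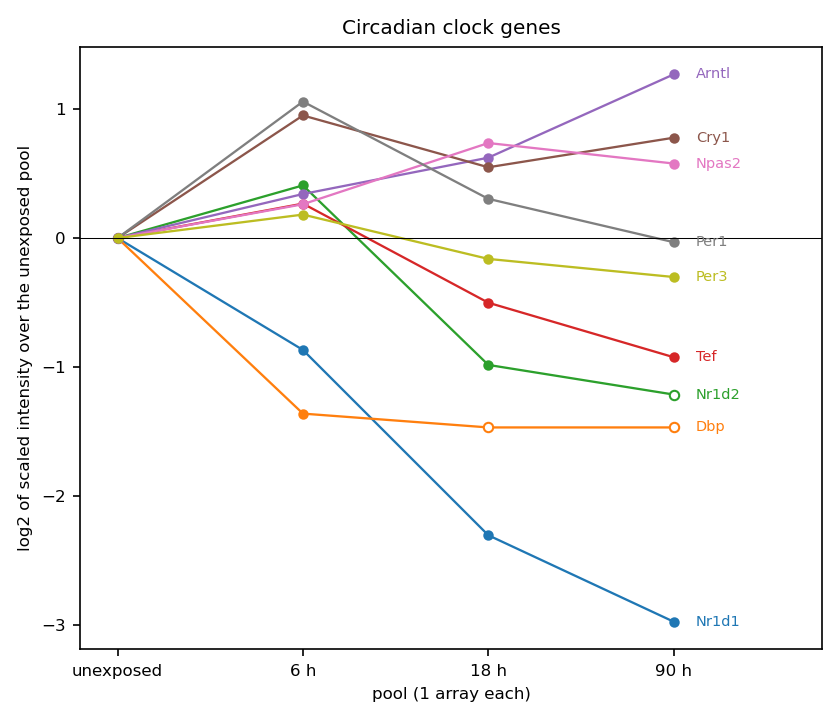
Log2 of scaled intensity over the unexposed pool for 9 circadian clock genes in the unexposed, 6, 18 and 90 h pools, 1 array each; open points are at the floor. Nr1d1 is the lowest, at -2.97 at 90 h, Dbp and Nr1d2 are at the floor there, and Arntl is the highest, at 1.27.

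B cell genes were lower at 90 h. Of 22 compared genes of B cells and plasma cells 19 lay under the unexposed level and 3 above, with a median log2 difference of -0.29, and 5 were at least 1.5-fold lower, set beside 4.88% of all compared genes. The same genes had medians of -0.45 at 6 h and -0.36 at 18 h. Their summed intensity was 5108 units at 90 h and 6937 in unexposed lungs, and 4805 and 5183 units at 6 and 18 h, and none was listed at 0 in the 90 h or unexposed pool. Pax5, the factor that fixes B cell identity, had 597, 410 and 391 units in the unexposed, 6 and 18 h pools and 398 units at 90 h, while its dimmer probe set showed -0.12 on the log2 scale. Fcer2a, the low-affinity IgE receptor, had 283, 140 and 167 units in the unexposed, 6 and 18 h pools and 181 units at 90 h, and Cd79a, a chain of the B cell receptor, had 354, 130 and 275 units in the unexposed, 6 and 18 h pools and 264 units at 90 h. These 3 genes were highest in unexposed lungs, and at 90 h were between 0.42 and 0.65 log2 units lower. Spib, a factor of B cells, was the only member at least 2-fold lower, with a log2 difference of -1.04 by a probe set with a suffix, and its other probe set gave -0.69. Sdc1, a surface protein of plasma cells and also of epithelium, had 147 units at 90 h and 80.4 in unexposed lungs by a probe set with a suffix, and its other probe set had 95.2 units at 90 h and 62.8, under the floor, in unexposed lungs.

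Over 16 compared markers of T cells and NK cells the median was -0.25, with 10 below 0, but 0.0031 when probe sets with a suffix were left out. Klrc1, an NK cell receptor, had 88.8 units at 90 h and 165 in unexposed lungs, and Prf1, perforin, 80.4 and 119 units. The T cell co-receptor Cd4 had 138 units in both, and Cd3e, of the T cell receptor, 107 and 92.5 units. Zap70, a kinase of T cell signalling, had a log2 difference of -1.16 by a probe set with a suffix, whereas its 2 other probe sets gave 0.05 and -0.05. Markers of thymus, which lies beside the lungs, had a median of -0.12 over 9 compared genes.

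Muscle genes were lower at 90 h. Of 47 genes of heart and skeletal muscle 32 were compared, and 30 of them lay below 0, set beside 46.2% of all compared genes. The median of the 32 was -0.38, the lowest of the 54 lists. The summed intensity of the 32 was 7433 units at 90 h, against 10034 units in unexposed lungs. At 6 and 18 h it was 9017 and 8522 units. Mb, myoglobin, had 547, 639 and 363 units in the unexposed, 6 and 18 h pools and 129 units at 90 h, 4.24-fold below unexposed, and by its other probe set the log2 difference was -0.75. Myh6, the heart myosin heavy chain, had 293 units at 90 h and 455 in unexposed lungs, and Nppa, atrial natriuretic peptide, 160 and 244 units. Myl7, an atrial light chain, had 701 units at 90 h and 975 in unexposed lungs. Lung veins of mice carry heart muscle, and how much vein or heart was taken with each pool is not given in the sources used here, so its part was not tested.

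Smooth muscle genes ran the same way, with 14 of 20 compared members below 0. Their median of -0.24 lay within the disagreement of probe sets of 0.25. Of all compared genes 46.2% lay below 0. Tpm2, a tropomyosin, had 250 units at 90 h and 496 in unexposed lungs, Myh11, the smooth muscle myosin, 332 and 533 units, and Acta2, smooth muscle actin, 806 and 1131 units. Des, desmin, belongs to both muscle lists. Of 37 endothelial genes 28 lay below 0, with a smaller median of -0.11, also within that disagreement. Lyve1, a hyaluronan receptor of lymphatic vessels, had 353, 1046 and 313 units in the unexposed, 6 and 18 h pools and 171 units at 90 h, and was the only endothelial member at least 2-fold lower. Cdh5, the cadherin of endothelial junctions, had 1088 units at 90 h and 1425 in unexposed lungs.

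Several stress responses that were large at 6 or 18 h lay near the unexposed level at 90 h. Mt1 and Mt2, the metallothioneins that bind zinc, had 446 and 261 units at 90 h, against 396 and 293 units in unexposed lungs, and 3892 and 3956 units at 6 h. Gclc, of glutathione synthesis, had 255 units at 90 h and 213 in unexposed lungs, and Fkbp5, a glucocorticoid-induced gene, was under the floor at 73.9 units at 90 h, against 108 units in unexposed lungs. Glucocorticoid and fasting genes had a median of 0.93 at 6 h and 0.05 at 90 h over 31 members. Over 34 proteasome subunits the medians were 0.65 at 18 h and 0.02 at 90 h.

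Some early genes remained above unexposed. Gsr, glutathione reductase, had 148, 409, 324 and 233 units in the unexposed, 6, 18 and 90 h pools. The 36 compared genes of its glutathione list had a median of -0.05 at 90 h, with 17 above 0 and 19 below. The acute phase gene Lrg1 had 248, 760, 1661 and 409 units in the unexposed, 6, 18 and 90 h pools. Of 30 compared genes of its list 15 lay above 0 and 15 below at 90 h. Heat shock and chaperone genes had a median of 0.26 over 38 members. Hspa1b, an inducible heat shock protein gene, had 147, 924 and 789 units in the unexposed, 6 and 18 h pools and 306 units at 90 h, and Hsph1, a partner of HSP70, had 290 units at 90 h and 148 in unexposed lungs. Immediate early genes had a median of 0.29 over 27 members. Fos had 182, 534 and 358 units in the unexposed, 6 and 18 h pools and 422 units at 90 h, 2.33-fold above unexposed, and Egr1 had 502 units at 90 h and 331 in unexposed lungs. Tissue factor, F3, which starts clotting, had 164, 805 and 526 units in the unexposed, 6 and 18 h pools and 91.5 units at 90 h, where it was the lowest of the 4 pools.

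Some genes past 2-fold belonged to no list. Gm15772, a predicted gene named here after its values were seen, had 1981, 1700 and 1786 units in the unexposed, 6 and 18 h pools and 8138 units at 90 h, a log2 difference of 2.04. Rgs11, a regulator of G protein signalling, had 108, 88.1 and 78.4 units in the unexposed, 6 and 18 h pools and 335 units at 90 h, 3.11-fold above unexposed. Nrep, a neuronal and wound-tissue protein, had 223, 113 and 88.8 units in the unexposed, 6 and 18 h pools and 456 units at 90 h. These 3 genes stood at 90 h above all other pools. Ssbp2 was 4.03-fold higher, at 315 units at 90 h and 78.3 in unexposed lungs, just above the floor. Dsc3, a desmosomal cadherin of stratified epithelium, had 314 units at 90 h and was listed at 0 in unexposed lungs, at least 4.04-fold higher counted from the floor. For Ankzf1 a probe set with a suffix was 2.97-fold higher, while its others gave -0.24 and a bound of 0.14.

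Of the 44 higher genes the 90 h pool was the highest of the 4 in 35, and 30 were at least 1.5-fold above both the 6 and 18 h pools. In 46 of the 56 lower genes the unexposed pool was the highest of the 4, and in 34 the 90 h level lay within 1.5-fold of both the 6 and 18 h levels. In 26 of the 44 higher genes the unexposed pool was the lowest of the 4. In 11 of them the 90 h level lay within 1.5-fold of both the 6 and 18 h levels. In 38 of the 56 lower genes the 90 h pool was the lowest of the 4. All these counts rest on the same unexposed array. The genes were chosen by the difference between the 90 h and unexposed pools, which favours an extreme value in either. Lhx6, a homeobox gene, had 699 units in the unexposed pool and 118, 119 and 123 units at 6, 18 and 90 h. Batf, a transcription factor of lymphocytes, had 358 units in the unexposed pool and 131, 108 and 128 units at 6, 18 and 90 h. Hrh2, a histamine receptor, had 449 units in the unexposed pool and lay under the floor in the others, at 29.6, 41.1 and 43.1 units. In these 3 genes the unexposed array alone was high.

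Others were low at 90 h alone. C1ql1, a secreted C1q-like protein, had 491, 399 and 296 units in the unexposed, 6 and 18 h pools and was listed at 0 at 90 h, at least 6.32-fold lower counted from the floor. Mep1a, a meprin metalloprotease, had 304, 411 and 336 units in the unexposed, 6 and 18 h pools and 86.7 units at 90 h, 3.51-fold below unexposed. Cldn6, a claudin of tight junctions, had 995, 1172 and 740 units in the unexposed, 6 and 18 h pools and 348 units at 90 h. Xdh, xanthine dehydrogenase of purine breakdown, had 373, 519 and 403 units in the unexposed, 6 and 18 h pools and 198 units at 90 h. In 15 of the 56 lower genes the 90 h pool was at least 1.5-fold below both the 6 and 18 h pools.

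Probe sets with a suffix for possible cross-hybridisation were common among the lower genes. They represented 22 of the 56, 39.3%, against 7 of the 44 higher genes and 13.2% of compared genes, and 18 of the 56 carried the suffix _r, against 3.76% of compared genes. Among these were P4hb, Olfr157, Eef1b2, Adam28, Reg2, A4galt, Dusp9 and Mcpt8. Of 9 lower genes with a further probe set measured in both pools 7 had the same direction by it and none passed 2-fold. The part of cross-hybridisation in the lower genes was not tested.

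**Figure D5:**
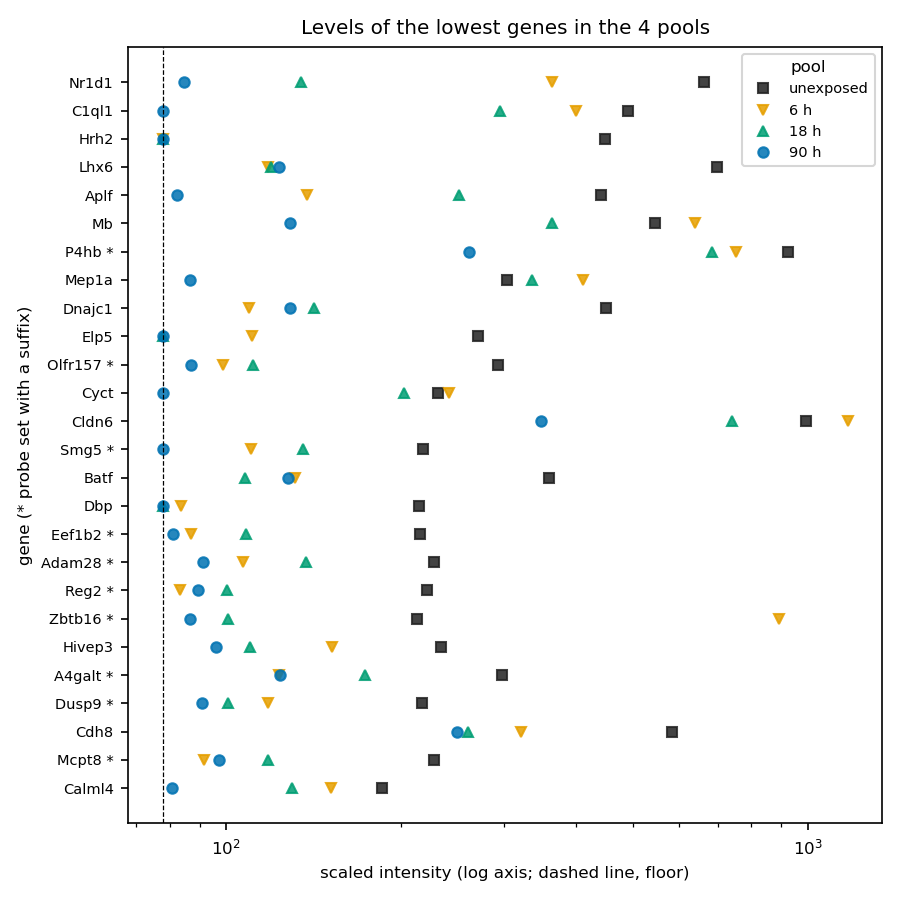
Scaled intensity (horizontal, log axis) in the unexposed, 6, 18 and 90 h pools of the 20 genes with the lowest measured difference and the 6 with the largest bounds, values under the floor of 77.7 units drawn on the dashed line; asterisks mark probe sets with a suffix. For genes such as Lhx6 and Hrh2 all 3 exposed pools lie together far below the unexposed pool, while for Mb, Mep1a, Cldn6 and C1ql1 the 90 h pool alone is far below the others.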

How the data were processed

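Total RNA of 4 lung pools was read on Affymetrix MG_U74Av2 arrays. The authors deposited 1 linear intensity per probe set and array; which software and scaling produced them is not given in the sources used here. Genes were named from the platform annotation: 10833 probe sets had 1 symbol, 396 several and 1193 were not listed. Each array was scaled to the mean of the 4 arrays' trimmed means, with 2% trimmed at each end. A floor of 77.7 units, the 40th percentile over the scaled arrays, replaced lower values before log2 was taken. For each gene the probe set brightest on average over the 4 arrays was used. At the floor in 1 pool it gave a bound, in both no fold. No test was made, since each group had 1 array. Members and the 54 lists were chosen with earlier results of these data known. Genes named by rule were the 20 highest and 20 lowest, the 6 largest bounds each way and the 8 furthest beyond all other pools each way. From each list the rule took up to 6 members with the largest differences, and any member of the clock, division, macrophage, matrix and B cell lists. Other list members, such as Mt2, Gclc, Ptprc, Mpo, Cd4 and Myl7, were named outside this rule. Unnamed clones were passed over, tissue markers and genes said to be chosen later excepted. Alternatives were other scalings, floors and thresholds, a pseudocount of 50 and other probe set choices. The code, in Python 3.11.15 with numpy 2.4.6, pandas 2.3.3 and limma 3.58.1 under R 4.3.3 for cyclic loess, was tested on simulated data.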

Additional observations from a re-analysis of the deposited data

Results flagged for a closer look

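At 4 genes the 90 h pool and an earlier pool lay more than 2-fold on opposite sides of the unexposed pool. The difference was not tested, as each pool had 1 array. Lyve1, a receptor of lymphatic endothelium, had log2 differences from unexposed of -1.05 at 90 h and 1.57 at 6 h. Zbtb16, a zinc finger factor induced by glucocorticoids, had -1.30 at 90 h and 2.06 at 6 h by a probe set with a cross-hybridisation suffix, and its other probe set gave -0.13 at 90 h. Sprr1a, a squamous cell protein, had at most -1.18 at 90 h, a bound, and 1.43 at 18 h. Nrep ran the other way, with 1.03 at 90 h and -1.33 at 18 h.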

How the results depend on the processing

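Median, quantile and loess scaling gave 43 to 44 higher and 56 to 58 lower genes. At 1.5-fold 206 genes were higher and 296 lower, and at 3-fold 13 and 11. A floor at the 25th percentile gave 91 higher and 87 lower genes, and one at the 60th percentile 22 and 25. The mean over probe sets gave 35 higher and 36 lower genes, leaving out probe sets with a suffix, which leaves fewer genes, 33 and 32, and a pseudocount of 50 gave 50 and 44. Without scaling 63 genes were higher and 40 lower, 61.2% higher against 44% with scaling, as the median of all genes moved to 0.16. Over probe sets, of which 51 were higher and 84 lower, the counts were 78 and 54 unscaled, 108 and 139 under the lower floor and 24 and 34 under the higher one, and 37 were lower without suffixes. Of 67 named genes past 2-fold, 21 remained so under every alternative with a value. Without suffixes Smg5 was 0.34 and Zap70 0.050 above unexposed, and the T and NK cell median was 0.0031. The macrophage median was 0.18 without shared members and the thymus median -0.48 with the floor at the 25th percentile. Of 648 list medians under alternatives 645 stayed within 0.25 of the reported value, and the cause of the others was not tested. Only 11 of the 54 reported medians lay at least 0.25 from 0, so most could change sign within that band. Near the floor a gene gives only a bound or a shortened difference. No paired analysis was possible because each group had 1 array.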

Other observations

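In 3 further groups more genes lay below the unexposed level than above it, by medians within the disagreement of probe sets of 0.25, and 46.2% of all compared genes lay below 0. Of 35 compared genes of lipid mediators and vasoactive peptides 25 lay below 0, with a median log2 difference of -0.20. Besides Hrh2, the receptor genes Ltb4r1, for leukotriene B4, and Tbxa2r, for thromboxane, were under the floor at 90 h, at 28.3 and 73.6 units against 155 and 147 units in unexposed lungs, while Ramp1, a partner of the calcitonin receptor-like receptor, had 234 units at 90 h and 137 in unexposed lungs. Of 51 compared growth factor genes 33 lay below 0, with a median of -0.14, led by Bmp7, a bone morphogenetic protein, at 145 units at 90 h and 283 in unexposed lungs. Of 40 genes of cytochromes P450 and other xenobiotic enzymes 28 lay below 0, with a median of -0.20 and with Fmo1, a flavin monooxygenase, at 481 units at 90 h and 838 in unexposed lungs.

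Sterol synthesis genes had a median of 0.23 over 15 members, and Fdps, of the isoprenoid pathway, had 225, 197 and 462 units in the unexposed, 6 and 18 h pools and 338 units at 90 h. Of 25 compared markers of fibroblasts and mesothelium, the outer lining of the lung, 15 lay above 0 and 10 below, with a median of 0.07. Among them Upk3b had 230 units at 90 h and 152 in unexposed lungs, and Msln 144 units at 90 h and 66.3, under the floor, in unexposed lungs. Among proteases, Adam19 had 217 units at 90 h and 120 in unexposed lungs, and Mmp14, a membrane collagenase, 297 and 187 units. Of the 849 compared probe sets without a symbol of a single gene, 2 (0.236%) were at least 2-fold higher and 16 (1.88%) at least 2-fold lower at 90 h, set beside 0.636% and 1.05% of all compared probe sets.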
